A study of Homo sapiens with 24 samples.

Results

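The comparison set MM1S cells treated with YKL-5-124 for 24 h against MM1S cells treated with the vehicle DMSO for 24 h. It used 6 of the 24 libraries of the series, 3 in each group, which were chosen by their labels, and all 26249 gene entries of their tables. MM1S is an established human multiple myeloma line, that is, a line of malignant plasma cells. YKL-5-124, called YKL below, is a code-named inhibitor of the kinase CDK7. The labels gave 98 nM on the YKL libraries, and the same figure stood on the DMSO libraries. The responses of MM1S at 6 h (98 nM) and of H929, another myeloma line, at 24 h (83 nM) served as comparisons, each with 3 YKL and 3 DMSO libraries of its own. Separate cultures behind the libraries of a group are not stated in the labels. The p-values therefore reflect the spread between libraries alone, which may be technical. For each gene this spread, and with it the standard error, was estimated from all 24 libraries together, of both lines and both times. All results on MM1S describe a single line.

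CDK7 is the catalytic subunit of the CDK-activating kinase. It phosphorylates the activating loop of the cell cycle kinases, among them CDK1 and CDK2, and as part of the general transcription factor TFIIH it phosphorylates the tail of the largest subunit of RNA polymerase II. Active CDKs inactivate RB and its relatives, which frees E2F factors to transcribe the genes of S phase, and a later wave of genes for mitosis is held back by the DREAM complex and driven by MYBL2 and FOXM1. Myeloma cells keep the programme of the plasma cell, with XBP1, PRDM1 and IRF4 as regulators, a large secretory apparatus and surface proteins such as syndecan-1 and BCMA.

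The deposited unit was FPKM, on which the spike-in RNAs were level between libraries, so that a change in the RNA of a whole library stays in the values. The median-of-ratios factor, which measures the scale of a library against the other libraries of the series, was 0.388, 0.413 and 0.446 in the YKL libraries, against 0.440, 0.799 and 0.361 in the DMSO libraries. DMSO replicate 2 lay well above the other 5 libraries, and the remaining values overlapped between the groups. The mean log2 difference of the factor was -0.28 (0.826-fold, exact permutation test, two-sided, p = 0.8, where 3 against 3 cannot go below 0.1). Without DMSO replicate 2 the difference was 0.059, with the opposite sign. The ratio of summed gene FPKM to summed spike-in FPKM was 2.52, 2.62 and 3.01 with YKL, against 3.11, 5.72 and 2.77 with DMSO. DMSO replicate 1 had the widest scatter of spike-in deviations (SD 0.580 on the log2 scale, against 0.155 to 0.286 in the other 5). Genes at or above 1 FPKM numbered 8655 to 8823 with YKL, against 7958 to 9941 with DMSO. Counts of called genes in this comparison are therefore given on both scales, as deposited and after the median-of-ratios rescaling. Most changes of single genes, and list counts of differences between responses, are given after rescaling alone. Fewer cells and less RNA per cell cannot be told apart in such bulk samples.

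**Figure D1:**
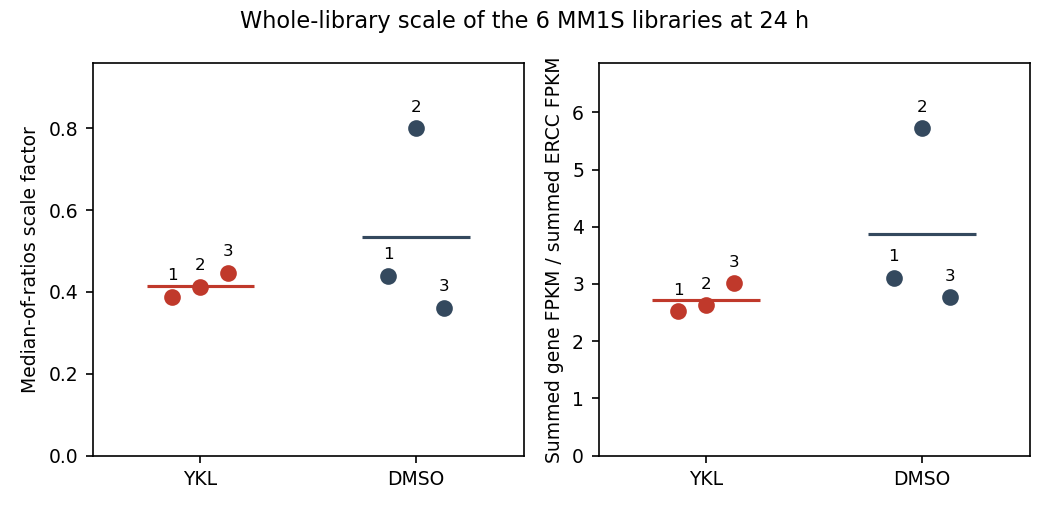
Whole-library scale of the 6 MM1S libraries at 24 h, YKL on the left and DMSO on the right. The left panel gives the median-of-ratios factor and the right panel the ratio of summed gene FPKM to summed spike-in FPKM; points are libraries with their replicate number and lines are group means. DMSO replicate 2 stands at 0.799 and 5.72, above the other libraries.

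The plasma cell markers of the label were present in every library: their summed level was 2266 to 2936 FPKM with YKL, against 1788 to 3998 FPKM with DMSO. Of 10 markers each, 7 for T cells, 9 for monocytes and 10 for epithelial cells and fibroblasts stayed under 1 FPKM in all 6 libraries. Their summed levels were 3.10 to 4.25 FPKM with YKL, against 3.17 to 4.94 FPKM with DMSO, for T cells, 1.38 to 2.75 against 1.27 to 3.50 FPKM for monocytes, and 1.78 to 2.32 against 0.973 to 2.28 FPKM for epithelial cells and fibroblasts. The T cell marker CD3G was at 0.694, 0.974 and 1.05 FPKM with YKL, against 0.111, 0.507 and 0.286 FPKM with DMSO, which passed the test after rescaling (log2 change 1.03 ± 0.26, adjusted p = 0.00505). Mitochondrially encoded transcripts had no entry (0 of 15), so this sign of RNA quality was not read. Among markers of the line, MAF, the transcription factor active through a translocation in MM1S, was at 29.7, 26.98 and 29.9 FPKM with YKL, against 14.4, 24.01 and 10.9 FPKM with DMSO. FGFR3, which is active in H929, stayed at or under 0.689 FPKM in every MM1S library at 24 h. Its groups overlapped, and it was called higher after rescaling (log2 change 0.47 ± 0.17, adjusted p = 0.0487), a call lost without DMSO replicates 2 or 3 or YKL replicates 2 or 3 (adjusted p up to 0.223).

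Of 12418 tested genes, 85 were higher (0.684%) and 841 lower (6.77%) with YKL as deposited, at an adjusted p of at most 0.05 (limma), 926 in all (7.46%). After rescaling 1791 were higher (14.4%) and 1655 lower (13.3%). All 926 genes called as deposited were also called after rescaling in the same direction (85 higher and 841 lower). Another 1706 higher and 814 lower calls came with the rescaling, which moved the median log2 change of all tested genes to 0.051, against -0.12 as deposited. Changes of at least 1 on the log2 scale were called in 260 higher (2.09%) and 571 lower genes (4.6%) after rescaling, and in 50 higher (0.403%) and 641 lower genes (5.16%) as deposited. Without regard to the test, all 3 YKL libraries lay above all 3 DMSO libraries in 410 genes (3.3%) and below them in 1818 (14.6%) as deposited, and in 2385 (19.2%) and 2032 (16.4%) after rescaling. Leaving out 1 library moved the deposited count of 926 by over 1.5 times in 3 cases, to 1861 without DMSO replicate 3, 491 without YKL replicate 1 and 579 without YKL replicate 2. The split by direction moved more: it was 305 higher and 424 lower without DMSO replicate 2, 35 and 686 without DMSO replicate 1, and 55 and 1806 without DMSO replicate 3. Without YKL replicates 1, 2 and 3 the higher calls as deposited were 39, 42 and 43, and the lower ones 452, 537 and 600. The rescaled count of 3446 went no lower than 2765 in this way, and it was 1639 when only these 6 libraries were fitted.

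Below, a gene is said to rise or fall where it passed the limma test after rescaling, and log2 changes are the rescaled ones with their standard error unless the deposited scale is named. FPKM values are as deposited. Genes of a list that lie outside the rule for named genes were chosen after their values were seen. The gene lists share some members.

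**Figure D2:**
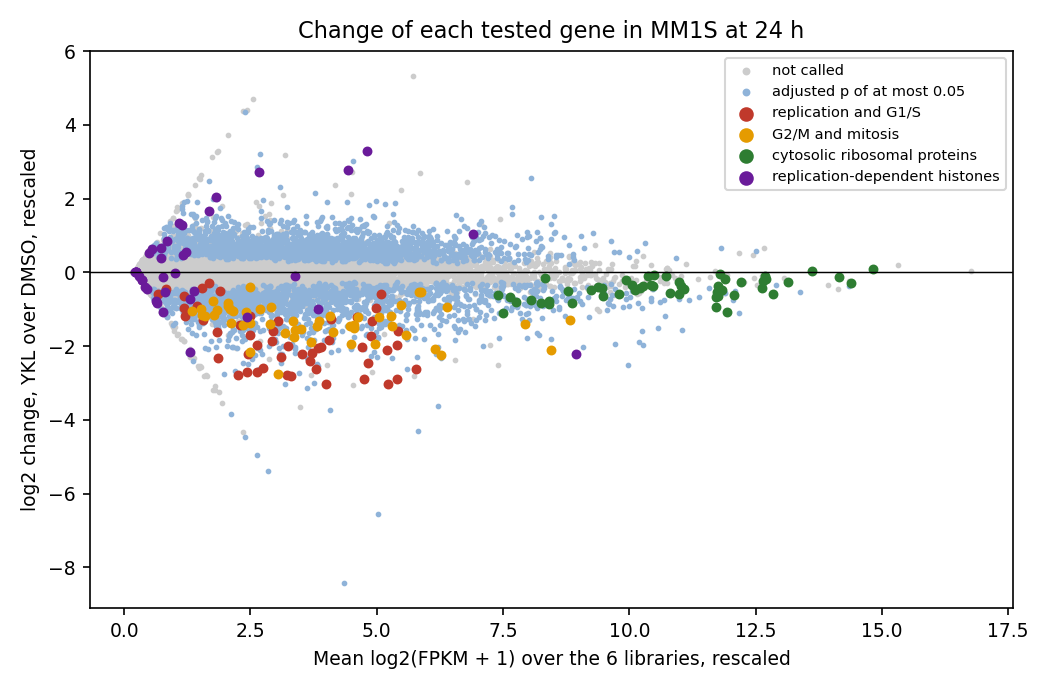
Log2 change (YKL over DMSO, rescaled) of each of the 12418 tested genes against its mean log2(FPKM + 1) over the 6 libraries, also rescaled. Blue points passed the test and grey points did not. Replication genes in red and mitosis genes in orange lie below 0, and the replication-dependent histones in purple lie on both sides.

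The replication machinery showed the deepest fall of all lists. Of 51 genes for DNA replication and the G1/S transition, 47 fell after rescaling and the other 4 (POLE2, CCNE2, PRIM2 and GINS4) did not pass the test. As deposited 42 fell. The median log2 change of the 51 genes was -1.97, against 0.051 for all tested genes. RRM2, the small subunit of ribonucleotide reductase, was at 4.27, 4.28 and 6.73 FPKM with YKL, against 42.95, 88.5 and 39.1 FPKM with DMSO. The highest YKL library was nearly 6 times below the lowest DMSO library, and RRM2 fell with the largest change of the list (log2 change -3.03 ± 0.10, adjusted p = 1.3e-13). TYMS, which makes thymidylate, was at 4.13, 7.53 and 7.11 FPKM with YKL, against 66.5, 79.1 and 36.8 FPKM with DMSO (log2 change -2.90 ± 0.20, adjusted p = 2.31e-09). In both enzymes of nucleotide supply the 3 YKL libraries lay close together and far below every DMSO library.

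The MCM helicase, which unwinds DNA at the fork, fell in its 6 subunits. MCM2 was at 1.39, 2.42 and 2.10 FPKM with YKL, against 19.5, 38.95 and 14.9 FPKM with DMSO (log2 change -3.02 ± 0.15, adjusted p = 1.96e-11). MCM3 was at 2.75, 3.62 and 4.85 FPKM with YKL, against 40.1, 52.9 and 22.2 FPKM with DMSO (log2 change -2.90 ± 0.17, adjusted p = 1.72e-10) and MCM6 at 0.423, 0.460 and 0.537 FPKM with YKL, against 6.35, 9.80 and 4.32 FPKM with DMSO (log2 change -2.70 ± 0.12, adjusted p = 3.64e-12). No YKL library of these genes reached any DMSO library. The other subunits MCM4, MCM5 and MCM7 had log2 changes of -2.62, -2.22 and -2.03. The partners that turn the helicase on fell as far: CDC45 was at 0.256, 0.319 and 0.470 FPKM with YKL, against 8.12, 6.30 and 3.76 FPKM with DMSO (log2 change -2.78 ± 0.22, adjusted p = 1.32e-08), and GINS2 at 0.920, 0.761 and 2.03 FPKM with YKL, against 16.3, 16.6 and 7.47 FPKM with DMSO (log2 change -2.80 ± 0.23, adjusted p = 2.08e-08). CDC6, which loads the helicase on origins, was at 0.635, 0.682 and 0.857 FPKM with YKL, against 6.84, 13.05 and 5.32 FPKM with DMSO (log2 change -2.60 ± 0.099, adjusted p = 5.06e-13). PCNA, the sliding clamp, had a log2 change of -2.47 and the flap nuclease FEN1 of -2.63 ± 0.27. FEN1 was at 5.58, 9.78 and 12.2 FPKM with YKL, against 93.8, 83.7 and 40.4 FPKM with DMSO, without overlap. Its relative spread among the YKL libraries was wider than in MCM2, MCM3 and MCM6. A smaller fall was that of DNMT1, the maintenance DNA methyltransferase (-0.97).

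Mitotic genes fell almost as completely, with smaller changes. Of 50 genes for G2/M and mitosis, 49 fell after rescaling and 44 as deposited, and CDC25C did not pass the test. Their median log2 change was -1.32. AURKB, the kinase of the chromosomal passenger complex, was at 12.6, 12.2 and 19.4 FPKM with YKL, against 57.7, 144 and 71.1 FPKM with DMSO (log2 change -2.23 ± 0.13, adjusted p = 2.81e-10). AURKA, the spindle pole kinase, was at 2.88, 4.29 and 4.16 FPKM with YKL, against 14.6, 22.5 and 10.1 FPKM with DMSO (log2 change -1.63 ± 0.10, adjusted p = 7.59e-10). CDK1, the mitotic kinase itself, was at 5.44, 6.77 and 6.70 FPKM with YKL, against 25.5, 52.5 and 20.7 FPKM with DMSO (log2 change -1.93 ± 0.12, adjusted p = 4.33e-10). STMN1, a protein that destabilises microtubules, was at 61.4, 67.3 and 80.9 FPKM with YKL, against 347, 554 and 243 FPKM with DMSO (log2 change -2.09 ± 0.098, adjusted p = 1.14e-11). Each of the 4 had its 3 YKL libraries in a narrow band below all DMSO libraries. TOP2A, the topoisomerase of dividing cells, had a log2 change of -2.07, the proliferation marker MKI67 of -1.32 and the cyclin CCNB1 of -1.31. The smallest falls were those of BUB3, a checkpoint protein (-0.54), and CDC25B, a phosphatase that activates CDK1 (-0.52).

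Promoter sequences of AURKB, CDK1 and STMN1 are shown because they were among the leading genes of the list with the most calls. RefSeq promoters (build GRCh38.p14, 250 bases before the listed start) were matched for 42 of the 50 mitosis genes and 43 of the 51 replication genes, and AURKA had no entry in the table. A gene was counted if any of its listed starts held the letters on either strand. The letters TTTGAA of the cell cycle homology region stood in 22 of 42 mitosis promoters (52.4%), in 3 of 43 replication promoters (6.98%) and in 16.1% of all 27305 genes listed. CCAAT stood in 34 (81%), 24 (55.8%) and 37%. An E2F motif, TTTCCCGC or TTTGGCGC, stood in 3 (7.14%), 17 (39.5%) and 2.36%. These are matches of letters in a window and do not show binding. The 250 bases before the start of AURKB (chr17:8210226-8210475, minus strand), CDK1 (chr10:60778228-60778477, plus strand) and STMN1 (chr1:25906420-25906669, minus strand) are given 5′ to 3′, at the listed start with most matches, with matched letters in capitals.
AURKB: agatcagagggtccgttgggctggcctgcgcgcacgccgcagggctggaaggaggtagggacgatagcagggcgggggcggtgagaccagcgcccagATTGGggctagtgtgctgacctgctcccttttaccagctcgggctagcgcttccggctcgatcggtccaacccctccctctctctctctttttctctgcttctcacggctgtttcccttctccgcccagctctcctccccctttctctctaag
CDK1: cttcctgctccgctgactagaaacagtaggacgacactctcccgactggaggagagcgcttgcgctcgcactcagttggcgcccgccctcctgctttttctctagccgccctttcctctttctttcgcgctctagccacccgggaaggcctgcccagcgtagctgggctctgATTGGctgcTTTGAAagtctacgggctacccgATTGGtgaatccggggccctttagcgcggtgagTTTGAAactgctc
STMN1: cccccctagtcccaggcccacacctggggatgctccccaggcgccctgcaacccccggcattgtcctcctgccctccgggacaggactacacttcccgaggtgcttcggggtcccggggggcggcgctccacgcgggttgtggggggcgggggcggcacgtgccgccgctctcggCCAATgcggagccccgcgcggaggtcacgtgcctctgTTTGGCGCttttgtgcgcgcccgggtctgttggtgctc
AURKB held 1 CCAAT match, 153 bases before the start. CDK1 held 2 CCAAT matches, at 78 and 46 bases, and 2 TTTGAA matches, at 69 and 13 bases before the start. STMN1 held 1 CCAAT match, at 75 bases, and 1 E2F match, at 38 bases. A capital run ATTGG is CCAAT read on the other strand.

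The factors that drive these programmes fell in part. E2F1, the activator of S phase genes, was at 0.820, 0.881 and 1.57 FPKM with YKL, against 8.84, 20.1 and 9.20 FPKM with DMSO (log2 change -2.79 ± 0.16, adjusted p = 1.66e-10). Its lowest DMSO library was over 5 times its highest YKL library. FOXM1, the activator of mitotic genes, was at 2.23, 2.82 and 2.19 FPKM with YKL, against 19.3, 13.9 and 6.40 FPKM with DMSO (log2 change -1.88 ± 0.26, adjusted p = 1.63e-05). MYBL2, its partner in the late cell cycle, was at 7.55, 8.34 and 13.2 FPKM with YKL, against 25.5, 51.01 and 25.996 FPKM with DMSO (log2 change -1.46 ± 0.21, adjusted p = 2.12e-05), and E2F2 had a log2 change of -1.20 ± 0.095. Of 19 E2F, RB and DREAM genes, 9 fell after rescaling and 7 as deposited. The other 10 did not pass the test, among them the pocket protein genes RB1 (-0.26), RBL1 (-0.48) and RBL2 (0.38), and E2F4 (-0.16).

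Of 27 genes for cell cycle CDKs, cyclins and inhibitors, 18 fell and 1 rose after rescaling, and 14 fell as deposited. CDK2, the S phase kinase that CDK7 activates, was at 4.95, 5.999 and 5.86 FPKM with YKL, against 25.5, 57.2 and 22.8 FPKM with DMSO (log2 change -2.17 ± 0.15, adjusted p = 2.83e-09). CDC25A, the phosphatase that activates it, was at 0.855, 1.36 and 1.48 FPKM with YKL, against 10.8, 10.8 and 6.41 FPKM with DMSO (log2 change -2.29 ± 0.18, adjusted p = 8.3e-09), and cyclin A2 (CCNA2) had a log2 change of -1.76 ± 0.15. The 3 YKL libraries of these genes lay below all DMSO libraries. CDKN1B, which encodes the inhibitor p27, was the gene that rose (0.58). CDKN1A, which encodes p21, was at 3.61, 4.47 and 3.84 FPKM with YKL, against 7.44, 9.72 and 4.63 FPKM with DMSO (log2 change -0.49 ± 0.14, adjusted p = 0.014), with no overlap between the groups. Its call was lost without DMSO replicate 1 or YKL replicate 3 (adjusted p up to 0.078). CCND2, the D cyclin of this line, was at 19.03, 28.2 and 31.8 FPKM with YKL, against 86.6, 56.4 and 28.6 FPKM with DMSO (log2 change -0.73 ± 0.25, adjusted p = 0.0361). Its groups overlapped, and the call was lost without DMSO replicate 1, YKL replicate 1 or YKL replicate 2 (adjusted p up to 0.234). CDK4 (-0.23) and CDK6 (-0.20) did not pass the test.

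Genes of homologous recombination and the Fanconi anaemia pathway, which repair broken and crosslinked DNA in S phase, fell in 24 of 31 cases after rescaling and in 20 as deposited. Their median log2 change was -1.17. FANCG, of the Fanconi core complex, was at 3.12, 2.52 and 3.50 FPKM with YKL, against 13.8, 23.9 and 8.65 FPKM with DMSO (log2 change -1.82 ± 0.14, adjusted p = 1.07e-08). FANCI, the target of the core complex, had a log2 change of -1.45 ± 0.13 and BARD1, the partner of BRCA1, of -1.17 ± 0.11. All 3 YKL libraries of these genes lay below all DMSO libraries. ATM, the kinase that senses double-strand breaks, rose (0.60). ATR (0.13) and PALB2 (0.17) were among the 6 that did not pass.

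Large falls outside the replication list, with small RNA classes left aside, included the following genes. FAM111B, a protease expressed in S phase, was at 0.785, 1.81 and 1.51 FPKM with YKL, against 22.5, 23.6 and 10.6 FPKM with DMSO (log2 change -3.13 ± 0.25, adjusted p = 1.03e-08). TCF19 was at 0.850, 0.599 and 1.37 FPKM with YKL, against 13.2, 16.9 and 8.60 FPKM with DMSO (log2 change -3.02 ± 0.16, adjusted p = 6.79e-11) and PAQR4 at 1.49, 1.22 and 2.09 FPKM with YKL, against 15.4, 29.99 and 14.1 FPKM with DMSO (log2 change -3.00 ± 0.13, adjusted p = 5.19e-12). CENPM, a kinetochore protein, was at 8.33, 5.74 and 9.31 FPKM with YKL, against 51.4, 97.5 and 42.3 FPKM with DMSO (log2 change -2.62 ± 0.13, adjusted p = 3.41e-11), and DSCC1, of a clamp loader for cohesion, at 1.47, 1.53 and 1.07 FPKM with YKL, against 15.5, 19.8 and 8.42 FPKM with DMSO (log2 change -2.73 ± 0.21, adjusted p = 6.72e-09). No YKL library reached a DMSO library in these genes. MELK, a mitotic kinase, fell by 2.76 and TMEM98 by 2.76 on the log2 scale. TUBA1B, an alpha tubulin whose reads may be shared with near-identical tubulin genes, was at 112, 191 and 246 FPKM with YKL, against 2231, 1214 and 650.2 FPKM with DMSO (log2 change -2.51 ± 0.35, adjusted p = 1.93e-05). DMSO replicate 1 was highest here, unlike in most genes.

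**Figure D3:**
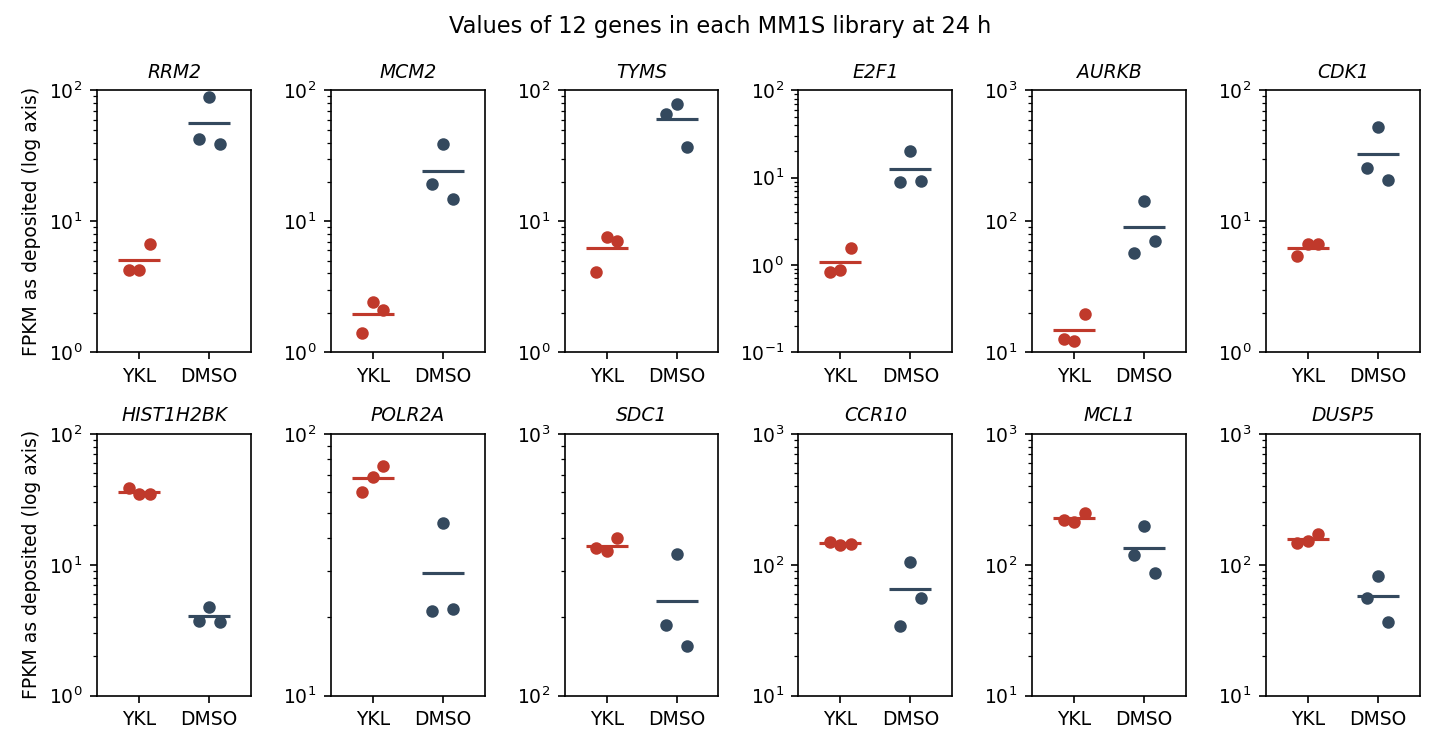
FPKM as deposited of 12 genes in each MM1S library at 24 h, YKL on the left and DMSO on the right of each panel, on log axes; lines are group means of 3 libraries. The upper row holds genes that fell (RRM2, MCM2, TYMS, E2F1, AURKB and CDK1), and the lower row genes that rose after rescaling (HIST1H2BK, POLR2A, SDC1, CCR10, MCL1 and DUSP5). In each gene shown the 3 YKL libraries lie on 1 side of the 3 DMSO libraries.

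Among the largest rises were histone genes. HIST1H2BK, which encodes an H2B histone, was at 38.6, 35.01 and 34.6 FPKM with YKL, against 3.71, 4.78 and 3.62 FPKM with DMSO (log2 change 3.29 ± 0.17, adjusted p = 3.41e-11). HIST2H2BE was at 6.44, 5.05 and 8.16 FPKM with YKL, against 0.855, 0.547 and 0.763 FPKM with DMSO (log2 change 2.73 ± 0.29, adjusted p = 6.06e-07) and HIST1H2BD at 17.6, 26.7 and 25.9 FPKM with YKL, against 4.53, 7.58 and 1.31 FPKM with DMSO (log2 change 2.78 ± 0.38, adjusted p = 1.42e-05). The 3 YKL libraries of these H2B genes stood far above the DMSO libraries. HIST1H1C, a linker histone, was at 65.1, 72.3 and 75.4 FPKM with YKL, against 33.99, 57.4 and 36.2 FPKM with DMSO (log2 change 1.04 ± 0.14, adjusted p = 1.17e-05). HIST1H4C went the other way, at 108, 82.7 and 92.5 FPKM with YKL, against 482, 734 and 422 FPKM with DMSO (log2 change -2.22 ± 0.26, adjusted p = 2.39e-06). Of 38 tested replication-dependent histone genes, 8 rose and 3 fell after rescaling, and 4 rose and 2 fell as deposited, with 1 fall as deposited without DMSO replicate 2 or any 1 of the YKL replicates. The rescaled shares were 21.1% higher and 7.89% lower, against 14.4% and 13.3% of all tested genes. The list's median was 0.017 after rescaling and -0.011 as deposited, so its sign depends on the scale. Histone messages mostly lack a poly(A) tail and the library method starts from such tails, so these values cover the polyadenylated forms, and reads may be shared between near-identical copies. HIST1H2BG was at 0.0711, 1.19 and 3.36 FPKM with YKL, against 0.0920, 0.0833 and 0.288 FPKM with DMSO, with YKL replicate 1 among the DMSO libraries and the other 2 YKL libraries above them. It rose after rescaling (log2 change 1.34 ± 0.45, adjusted p = 0.0325), but the call was lost without either DMSO replicate 1 or 2 or YKL replicate 2 or 3 (adjusted p up to 0.223).

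Other large rises were spread over genes of mixed function. SCO2, a copper chaperone of cytochrome oxidase, was at 9.76, 7.39 and 11.9 FPKM with YKL, against 0.114, 0.0881 and 0.0508 FPKM with DMSO (log2 change 4.36 ± 0.65, adjusted p = 4.16e-05). The DMSO values lie near the lowest value of their tables (0.0370 to 0.0749 FPKM), so the size of this change depends on the pseudocount, and SCO2 overlaps TYMP, with which reads could be shared. C11orf96 was at 279.8, 242 and 285 FPKM with YKL, against 38.3, 98.4 and 42.8 FPKM with DMSO (log2 change 2.57 ± 0.20, adjusted p = 9.12e-09), and VPREB3, a protein of the pre-B cell receptor, at 6.98, 7.95 and 7.36 FPKM with YKL, against 1.83, 1.86 and 0.797 FPKM with DMSO (log2 change 2.31 ± 0.31, adjusted p = 1.19e-05). In both, the lowest YKL library exceeded the highest DMSO library by over 2 times. P2RX1, an ATP-gated ion channel, was at 16.6, 16.5 and 16.7 FPKM with YKL, against 3.59, 9.07 and 3.80 FPKM with DMSO (log2 change 1.91 ± 0.16, adjusted p = 3.02e-08). NABP1, a single-stranded DNA binding protein, was at 27.2, 33.9 and 37.6 FPKM with YKL, against 12.2, 13.4 and 6.67 FPKM with DMSO (log2 change 1.89 ± 0.13, adjusted p = 1.96e-09). TMEM150A (2.14) and YIPF1 (1.92), a protein of Golgi membranes, also rose. The antisense entries PARD3-AS1 (3.03), SNAI3-AS1 (2.85) and HOXB-AS3 (1.99) and the long noncoding entry LINC01251 (1.98) were called too. Whether the authors assigned reads by strand is not stated in the labels, so reads of antisense entries and their partners cannot be told apart.

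CDK7, the intended target, was at 1.58, 1.17 and 2.15 FPKM with YKL, against 3.64, 3.65 and 1.44 FPKM with DMSO. The groups overlapped and no change passed the test (log2 change -0.40 ± 0.29, adjusted p = 0.336; -0.53 and adjusted p = 0.428 as deposited). POLR2A, the largest subunit of RNA polymerase II, whose tail CDK7 phosphorylates, rose. POLR2A was at 59.9, 68.3 and 75.6 FPKM with YKL, against 21.03, 45.7 and 21.5 FPKM with DMSO (log2 change 1.56 ± 0.10, adjusted p = 1.05e-09), with all YKL libraries above all DMSO libraries on both scales. Of the 12 polymerase subunits tested, 2 rose (16.7%) and 3 fell (25%) after rescaling, against 14.4% and 13.3% of all tested genes. Beside POLR2A, POLR2B rose (0.45) and POLR2H (-0.86), POLR2I (-0.56) and POLR2F (-0.41) fell. The call of POLR2B was lost without DMSO replicate 1 and that of POLR2F without YKL replicate 1 (adjusted p 0.0538 and 0.0526), and without YKL replicate 1 the list had 1 fall. As deposited POLR2A rose and POLR2H fell, with no fall without DMSO replicate 2, YKL replicate 1 or YKL replicate 2 and 3 falls without DMSO replicate 3. Of 29 genes for CDK7, TFIIH, other transcription kinases and elongation factors, 4 rose after rescaling (13.8%, close to the 14.4% of all tested genes). They were HEXIM1, the inhibitor of P-TEFb (0.73 ± 0.19), the elongation factors SUPT5H (0.64 ± 0.15) and SUPT4H1 (0.53 ± 0.14), and ERCC3, the XPB helicase of TFIIH (0.50 ± 0.11). As deposited limma called 0 of the 29, with 1 lower at an unadjusted p under 0.05, and the list's median was -0.099, against 0.17 after rescaling.

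MYC itself was at 7.92, 5.93 and 7.31 FPKM with YKL, against 3.18, 11.3 and 4.56 FPKM with DMSO. DMSO replicate 2 exceeded the YKL libraries as deposited, all 3 YKL libraries were higher after rescaling, and the change did not pass the test (log2 change 0.58 ± 0.25, adjusted p = 0.0955). Among 11 genes of the MYC network, MXD4, an antagonist of MYC, rose (1.10 ± 0.17), as did MAX, the partner of both (0.64 ± 0.12), and MLXIP (0.63 ± 0.17, lost without DMSO replicate 3 at adjusted p = 0.0608). MXD3 fell (-1.13 ± 0.22). As deposited 0 of the 11 were higher and MXD3 alone was lower, a call lost without DMSO replicate 2 (adjusted p = 0.0627). Among 48 targets of MYC and ribosome assembly factors, 13 fell after rescaling (27.1%, against 13.3% of all tested genes). The other 35 did not pass the test, and the median of the 48 genes was -0.18. NCL, the nucleolar protein nucleolin, was at 70.0028, 70.3 and 82.4 FPKM with YKL, against 159, 236 and 113 FPKM with DMSO (log2 change -0.85 ± 0.084, adjusted p = 2.3e-07). ODC1, the rate-limiting enzyme of polyamine synthesis, was at 24.97, 30.6 and 36.2 FPKM with YKL, against 123, 111 and 50.8 FPKM with DMSO (log2 change -1.26 ± 0.18, adjusted p = 2.21e-05). NHP2, a protein of box H/ACA particles, had a log2 change of -0.98 ± 0.11 and PA2G4 of -0.89 ± 0.13. The groups did not overlap in these 4 genes, with YKL on the lower side. As deposited 9 fell (18.8%, against 6.77% of all tested genes). Without DMSO replicates 1 or 2 that count was 5 or 3, and without YKL replicates 1, 2 or 3 it was 3, 4 or 5.

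Host genes of small nucleolar RNAs and ribosomal protein genes, which share a terminal oligopyrimidine start, also moved down. Of 19 host genes, 11 fell and 1 rose after rescaling (SNHG20, 0.75), with a median of -0.76. SNHG1 was at 22.6, 26.3 and 26.6 FPKM with YKL, against 87.4, 140.2 and 70.1 FPKM with DMSO (log2 change -1.63 ± 0.11, adjusted p = 2.32e-09). SNHG16 had a log2 change of -1.63 ± 0.14, SNHG3 of -1.58 ± 0.14 and SNHG7 of -1.26 ± 0.14. As deposited 10 fell, and 6 without DMSO replicate 2 or without YKL replicate 1. Of 52 cytosolic ribosomal proteins, 28 fell after rescaling (53.8%, against 13.3% of all tested genes). As deposited 4 fell (7.69%, close to the 6.77% of all tested genes). The median was -0.43 after rescaling and -0.71 as deposited, against 0.051 and -0.12 for all tested genes. RPL23, of the large subunit, was at 1052, 1105 and 1220.1 FPKM with YKL, against 2683, 4402 and 2010.2 FPKM with DMSO (log2 change -1.08 ± 0.083, adjusted p = 7.96e-09). RPS20 had a log2 change of -0.93 ± 0.12, RPS25 of -0.63 ± 0.097 and RPL15 of -0.63 ± 0.11. In each the YKL libraries lay below all DMSO libraries. The rescaled count was 14 without YKL replicate 1 and 17 without YKL replicate 2. The deposited count was 28 without DMSO replicate 3, 2 without DMSO replicate 2, 1 without YKL replicate 1 and 2 without YKL replicate 2. Reads of ribosomal protein genes may be shared with their many pseudogenes.

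Plasma cell genes tended to rise after rescaling, and few of them did so as deposited. SDC1, which encodes syndecan-1 (CD138), was at 365, 358 and 399.9 FPKM with YKL, against 186, 348 and 155 FPKM with DMSO (log2 change 1.07 ± 0.068, adjusted p = 6.93e-10), with all YKL libraries above all DMSO libraries. CCR10, a chemokine receptor of plasma cells, was at 151, 142 and 145 FPKM with YKL, against 34.1, 105 and 56.1 FPKM with DMSO (log2 change 1.58 ± 0.18, adjusted p = 1.1e-06), also without overlap. TNFRSF17, which encodes BCMA, was at 262, 203 and 271 FPKM with YKL, against 116, 263 and 112 FPKM with DMSO (log2 change 0.97 ± 0.15, adjusted p = 6.41e-05). LY9, a receptor of the SLAM family, had a log2 change of 0.89 ± 0.15, and CRBN, the cereblon that binds lenalidomide, of 0.97. DMSO replicate 2 lay within the YKL range of TNFRSF17 and above that of LY9 as deposited, and the groups separated after rescaling. Of 26 surface and therapy target genes, 11 rose (42.3%) and 2 fell (7.69%) after rescaling, against 14.4% and 13.3% of all tested genes. The falls were CXCR4 (-0.54) and CD44 (-0.27), and the list's median was 0.40. Neither fall was called without DMSO replicates 1 or 3 or YKL replicate 1, and 1 was without YKL replicate 2 or 3. As deposited CCR10 alone was called, and its call was lost without DMSO replicate 1 (adjusted p = 0.0728). Without DMSO replicate 2 the deposited scale gave 5 rises, and without DMSO replicate 3 it gave 3 falls.

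Of 20 transcription factors of plasma cells and myeloma, 10 rose (50%) and 2 fell (10%) after rescaling, against 14.4% and 13.3% of all tested genes. MAF, whose values are given above, rose (log2 change 1.14 ± 0.13, adjusted p = 1.56e-06). PRDM1, the factor that commits B cells to the plasma cell, was at 27.04, 28.4 and 28.5 FPKM with YKL, against 18.7, 26.3 and 10.4 FPKM with DMSO (log2 change 0.96 ± 0.13, adjusted p = 9.9e-06), with the YKL libraries narrowly above all DMSO libraries. XBP1, the regulator of secretion, was at 633, 612 and 861 FPKM with YKL, against 357, 874 and 365 FPKM with DMSO (log2 change 0.79 ± 0.11, adjusted p = 2.31e-05). As deposited DMSO replicate 2 was the highest of the 6 libraries for XBP1, and after rescaling the YKL libraries were all higher. IRF4, on which myeloma cells depend, was at 16.8, 16.4 and 18.1 FPKM with YKL, against 11.1, 29.9 and 14.7 FPKM with DMSO. The groups overlapped on both scales and no change was called (log2 change 0.28 ± 0.13, adjusted p = 0.114). SP140, a nuclear body protein of B cells, was at 5.93, 4.40 and 3.9998 FPKM with YKL, against 13.1, 21.8 and 10.2 FPKM with DMSO (log2 change -1.25 ± 0.17, adjusted p = 1.3e-05), and KLF2 fell too (-0.86). As deposited MAF was higher and SP140 and KLF2 were lower, and without DMSO replicate 2 there were 3 rises. KLF2 lost that call without DMSO replicate 2 or any 1 of the YKL replicates. The call of MAF as deposited was lost without any 1 of 5 libraries (DMSO replicates 1 and 3 and YKL replicates 1, 2 and 3, adjusted p up to 0.15). MZB1, a chaperone of immunoglobulin assembly, was at 230.1, 217 and 279 FPKM with YKL, against 492, 817 and 359 FPKM with DMSO (log2 change -0.85 ± 0.12, adjusted p = 1.94e-05). Of the 10 plasma cell markers of the label, MZB1 alone fell after rescaling, while 5 rose and 4 did not pass the test. As deposited MZB1 was lower and 0 of the 10 were higher. That deposited call was lost without DMSO replicate 2 or YKL replicates 1 or 2. WHSC1, the gene translocated in H929, had a log2 change of -0.87 ± 0.09 in MM1S.

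**Figure D4:**
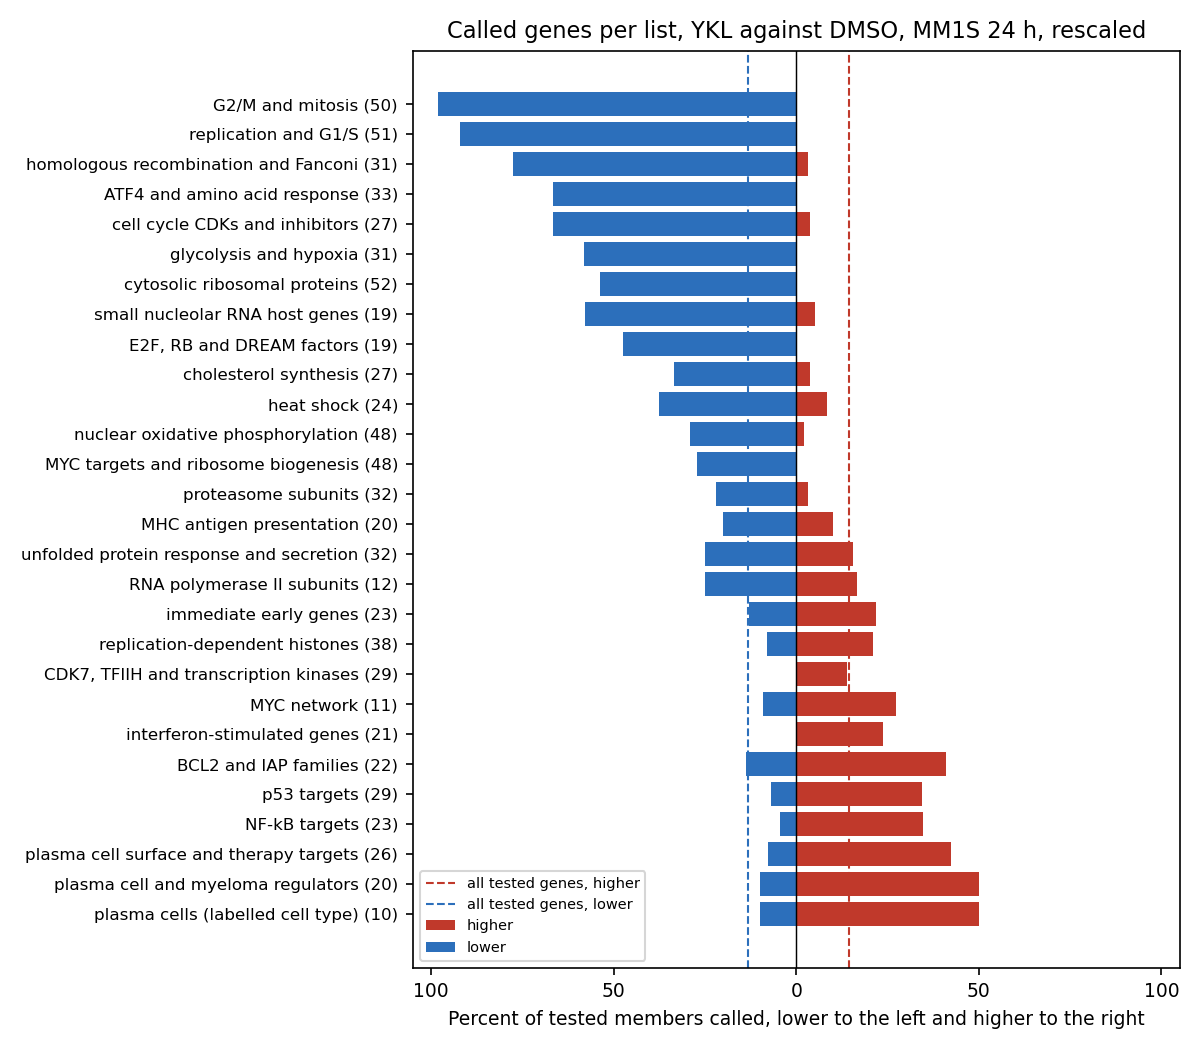
Percent of tested members called per gene list in MM1S at 24 h after rescaling, lower with YKL to the left in blue and higher to the right in red; the number of tested members stands in brackets. Dashed lines mark the shares of all tested genes (13.3% lower and 14.4% higher). Among the lists drawn with at least 20 tested members, mitosis (98%) and replication (92.2%) have the largest shares of falls, and plasma cell regulators (50%) and surface genes (42.3%) the largest shares of rises.

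In the secretory pathway the list of 32 unfolded protein response and secretion genes held 5 rises (15.6%) and 8 falls (25%) after rescaling, so its rises were close to the 14.4% of all tested genes, beside 13.3% for falls. SYVN1, the ligase of ER-associated degradation, was at 36.5, 38.4 and 37.4 FPKM with YKL, against 19.1, 45.2 and 20.5 FPKM with DMSO (log2 change 0.78 ± 0.099, adjusted p = 5.94e-06). HSPA5, the ER chaperone BiP, was at 106, 108 and 128 FPKM with YKL, against 147, 299 and 145 FPKM with DMSO (log2 change -0.43 ± 0.095, adjusted p = 0.00194), and DERL3 had a log2 change of -0.60 ± 0.13. The YKL libraries of HSPA5 lay just below the DMSO libraries. As deposited MANF and HERPUD1 fell (6.25%, close to the 6.77% of all tested genes). Neither they nor another member fell without DMSO replicate 2 (where 2 rose) or without any 1 of the YKL replicates, and 6 genes fell without DMSO replicate 3. Without DMSO replicates 2 or 3 or YKL replicates 2 or 3 the rescaled falls were 5, and without YKL replicates 1, 2 or 3 the rescaled rises were 3, 2 or 2.

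Genes of amino acid supply under ATF4, the factor of the integrated stress response, fell in 22 of 33 cases after rescaling and in 14 as deposited, with a median of -0.69. PSAT1, an enzyme of serine synthesis, was at 2.19, 2.12 and 1.89 FPKM with YKL, against 18.7, 23.3 and 10.8 FPKM with DMSO (log2 change -2.52 ± 0.15, adjusted p = 1.72e-10). PHGDH, the first enzyme of that pathway, was at 0.392, 0.859 and 0.676 FPKM with YKL, against 2.93, 6.12 and 3.04 FPKM with DMSO (log2 change -1.78 ± 0.16, adjusted p = 6.23e-08). AARS, the alanyl-tRNA synthetase, was at 2.15, 2.09 and 2.47 FPKM with YKL, against 8.99, 13.04 and 5.68 FPKM with DMSO (log2 change -1.53 ± 0.12, adjusted p = 6.99e-09). The groups were far apart in these genes, with no YKL library near a DMSO library. DDIT4, an inhibitor of mTORC1, had a log2 change of -1.27 ± 0.11, CHAC1, which degrades glutathione, of -1.85, and ASNS, asparagine synthetase, of -0.98. ATF4 itself fell by 0.41 on the log2 scale. SESN2 (-0.26) and STC2 (0.084) did not pass.

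Glycolysis and hypoxia genes fell in 18 of 31 cases after rescaling, with a median of -0.70. LDHA, which makes lactate, was at 16.6, 23.3 and 29.7 FPKM with YKL, against 100.2, 116 and 52.8 FPKM with DMSO (log2 change -1.62 ± 0.17, adjusted p = 6.89e-07). PKM, pyruvate kinase, was at 12.02, 16.2 and 19.1 FPKM with YKL, against 34.9, 58.3 and 31.6 FPKM with DMSO (log2 change -1.07 ± 0.17, adjusted p = 7.45e-05). PGK1 had a log2 change of -0.79 ± 0.13 and TPI1 of -0.78 ± 0.097, and in these 4 enzymes no YKL library reached the lowest DMSO library. As deposited 13 fell. That count was 3 without DMSO replicate 2 and 2, 5 and 6 without YKL replicates 1, 2 and 3. Among 48 nuclear genes of oxidative phosphorylation, 14 fell (29.2%, against 13.3% of all tested genes) and SDHA rose (0.51) after rescaling. The list's median was -0.33. ATP5G1, of the ATP synthase ring, was at 214, 183 and 277 FPKM with YKL, against 369.8, 956 and 445 FPKM with DMSO (log2 change -1.01 ± 0.15, adjusted p = 5.56e-05), and UQCRH, of complex III, had a log2 change of -0.76 ± 0.12. The rescaled count was 7 without YKL replicate 2. SDHA lost its call without DMSO replicate 1, YKL replicate 2 or YKL replicate 3. As deposited ATP5G1 and UQCRH were the 2 called (4.17%, against 6.77% of all tested genes called lower), and 20 fell without DMSO replicate 3. The deposited call of ATP5G1 was lost without DMSO replicate 2 or YKL replicate 2 (adjusted p up to 0.0576), and that of UQCRH without DMSO replicates 1 or 2 or YKL replicates 1 or 2 (adjusted p up to 0.0877).

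Of 27 cholesterol synthesis genes, 9 fell (33.3%) and 1 rose (3.7%) after rescaling, against 13.3% and 14.4% of all tested genes. EBP, a sterol isomerase, was at 20.4, 32.8 and 31.2 FPKM with YKL, against 80.7, 115 and 58.1 FPKM with DMSO (log2 change -1.28 ± 0.20, adjusted p = 7.3e-05), and INSIG1, the sensor that holds SREBP back, had a log2 change of -0.89 ± 0.15. TM7SF2, a sterol reductase, rose (1.23 ± 0.22). Without YKL replicate 2 the rescaled falls were 5. As deposited 4 fell (14.8%, against 6.77% of all tested genes), 2 without DMSO replicate 2 and 7 without DMSO replicate 3.

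Genes of cell death and of p53 included rises and falls after rescaling, with shares of falls near or below that of all tested genes. MCL1, the BCL2 relative on which myeloma cells depend, was at 219, 211 and 249 FPKM with YKL, against 118, 197 and 86.9 FPKM with DMSO (log2 change 1.11 ± 0.082, adjusted p = 5.23e-09), with all YKL libraries above all DMSO libraries. BBC3, the death protein PUMA, was at 37.5, 37.5 and 44.1 FPKM with YKL, against 12.3, 43.5 and 19.5 FPKM with DMSO (log2 change 1.12 ± 0.21, adjusted p = 0.000354), and after rescaling its groups did not overlap. PMAIP1, the death protein NOXA that binds MCL1, was at 0.427, 0.0606 and 0.168 FPKM with YKL, against 2.01, 3.12 and 1.11 FPKM with DMSO (log2 change -1.69 ± 0.26, adjusted p = 5.76e-05), all below the DMSO libraries. BIRC5, or survivin, which also serves mitosis, was at 9.32, 9.47 and 12.6 FPKM with YKL, against 23.9, 49.2 and 20.4 FPKM with DMSO (log2 change -1.17 ± 0.10, adjusted p = 5.97e-08). CFLAR, an inhibitor of death receptor signalling, had a log2 change of 0.92 ± 0.13, and BCL2 of 1.05. Of 22 BCL2 and IAP family genes, 9 rose (40.9%) and 3 fell (13.6%) after rescaling, against 14.4% and 13.3% of all tested genes. As deposited PMAIP1 and BIRC5 were called, both lower (9.09%, against 6.77% of all tested genes). Without DMSO replicate 2, 6 genes were higher on that scale. Of 29 p53 targets, 10 rose (34.5%) and 2 fell (6.9%) after rescaling. TP53INP1 (0.81 ± 0.12) and BTG2, an antiproliferative gene (0.95 ± 0.10), were among the rises. CDKN1A and PMAIP1 fell, the latter a member of both lists. The p53 target rises were 6 without DMSO replicate 2. As deposited PMAIP1 was the p53 target called (3.45%), with 2 rises without DMSO replicate 2 and 2 falls without DMSO replicate 3.

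Of 23 NF-kB targets, 8 rose (34.8%) and CXCL10 fell (-0.74) after rescaling, and CXCL10 lost its call without DMSO replicates 1 or 2 or YKL replicates 1 or 2. IRF1, an interferon and NF-kB response factor, was at 18.6, 24.3 and 23.4 FPKM with YKL, against 9.20, 21.1 and 9.48 FPKM with DMSO (log2 change 1.09 ± 0.12, adjusted p = 1.14e-06). BCL3 had a log2 change of 1.15 ± 0.22, CYLD, a deubiquitinase that restrains the pathway, of 0.86 ± 0.11, and NFKBIA, the inhibitor IkB alpha, of 0.76 ± 0.15. As deposited limma called 0 of the 23, with 4 higher and 1 lower at an unadjusted p under 0.05, and 3 were called higher without DMSO replicate 2. Among 23 immediate early genes, 5 rose (21.7%) and 3 fell (13%), against 14.4% and 13.3% of all tested genes. DUSP5, a phosphatase of ERK, was at 146, 152 and 171 FPKM with YKL, against 55.7, 82.1 and 36.6 FPKM with DMSO (log2 change 1.77 ± 0.12, adjusted p = 1.04e-09), and JUN at 9.08, 9.27 and 8.78 FPKM with YKL, against 14.03, 37.3 and 16.6 FPKM with DMSO (log2 change -0.88 ± 0.16, adjusted p = 0.000317). Both had groups without overlap, in opposite directions. As deposited DUSP5 was higher and JUN and ATF3 were lower, with 3 rises without DMSO replicate 2, and the deposited call of JUN was lost without DMSO replicate 2 (adjusted p = 0.0621), and that of ATF3 without DMSO replicate 2 or any 1 of the YKL replicates.

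Interferon-stimulated genes rose in 5 of 21 cases after rescaling (23.8%, against 14.4% of all tested genes), namely BST2, SP100, OAS1, OAS2 and STAT2. STAT2, which relays interferon signals, was at 9.36, 8.97 and 9.16 FPKM with YKL, against 4.07, 9.36 and 3.56 FPKM with DMSO (log2 change 1.04 ± 0.12, adjusted p = 1.21e-06), and OAS2, an RNA sensor, at 3.78, 3.48 and 3.74 FPKM with YKL, against 2.50, 2.96 and 1.24 FPKM with DMSO (log2 change 0.92 ± 0.15, adjusted p = 9.19e-05). As deposited DMSO replicate 2 reached the YKL range of STAT2, and after rescaling the groups were apart. The count was 3 without DMSO replicate 2 or 3. The call of BST2 was lost without DMSO replicate 1 and that of SP100 without DMSO replicates 2 or 3 or YKL replicates 2 or 3 (adjusted p up to 0.0619 and 0.0766). As deposited limma called 0 of the 21, with 2 higher and 1 lower at an unadjusted p under 0.05, and 1 was called higher without DMSO replicate 2. Of 20 antigen presentation genes 2 rose (10%) and 4 fell (20%), against 14.4% and 13.3% of all tested genes. TAP1, the peptide transporter, had a log2 change of 1.02 ± 0.13, TAPBP, which loads peptides, of 0.65 ± 0.12, HLA-DMB of -1.38 ± 0.30 and the immunoproteasome subunit PSMB8 of -0.65 ± 0.11. As deposited 3 fell. That count was 1 without DMSO replicate 2, YKL replicate 1 or YKL replicate 3, and 7 without DMSO replicate 3.

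Of 24 heat shock genes, 9 fell (37.5%) and 2 rose (8.33%) after rescaling, against 13.3% and 14.4% of all tested genes. HSPA8, a constitutive chaperone, was at 13.6, 22.4 and 26.97 FPKM with YKL, against 93.2, 66.6 and 30.3 FPKM with DMSO (log2 change -1.21 ± 0.27, adjusted p = 0.00203). HSP90AA1 had a log2 change of -0.73 ± 0.18 and HSPD1, of the mitochondrial chaperonin, of -0.61 ± 0.14. DNAJB6 rose (0.99 ± 0.13), as did CDC37 (0.47). The falls were 5 without YKL replicate 2. As deposited 3 fell (12.5%, against 6.77% of all tested genes), namely HSPA8, HSPE1 and HSP90AA1. That count was 6 without DMSO replicate 3, 1 without DMSO replicates 1 or 2 or YKL replicate 2, and 0 without YKL replicate 1. Of 32 proteasome subunits, the targets of bortezomib and its complex, 7 fell (21.9%, against 13.3% of all tested genes) and PSMD7 rose (0.35). PSMC3 had a log2 change of -0.85 ± 0.19, PSMD14 of -0.62 ± 0.12, PSMA3 of -0.94 ± 0.24 and PSMA2 of -0.58 ± 0.13. The falls were 4 without YKL replicate 1 or 2, and PSMD7 lost its call without DMSO replicate 2 or YKL replicate 3. As deposited PSMA3 alone was called (3.12%, against 6.77% of all tested genes called lower). That call was lost without DMSO replicates 1 or 2 or YKL replicates 1 or 2 (adjusted p up to 0.16), and 9 members fell without DMSO replicate 3. Of 5 tested metallothionein genes and their regulator, MT2A (-2.03 ± 0.58) and MT1X (-1.19 ± 0.39) fell and MT1E (1.22 ± 0.38) rose. The call of MT2A was lost without DMSO replicate 2 or YKL replicate 2, that of MT1X without DMSO replicates 1 or 3 or YKL replicate 2, and that of MT1E without YKL replicates 1 or 3 (adjusted p up to 0.094, 0.197 and 0.143). As deposited MT2A alone was called, on the lower side. That call was lost without DMSO replicates 1 or 2 or YKL replicates 1 or 2 (adjusted p up to 0.243).

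Set against MM1S at 6 h, most cell cycle genes had a lower change at 24 h. The comparisons share no libraries. After rescaling 1024 genes were higher (8.25%) and 896 lower (7.22%) with YKL at 6 h, and as deposited 115 (0.926%) and 1245 (10%). After rescaling, of the genes higher at 24 h, 476 were also higher at 6 h (26.6% of 1791, and 46.5% of 1024), and of those lower at 24 h, 415 were also lower at 6 h (25.1% of 1655, and 46.3% of 896). As deposited 14 of the 85 higher genes were also higher at 6 h (16.5%, and 12.2% of 115). Of the 841 lower genes 326 were also lower at 6 h (38.8%, and 26.2% of 1245). After rescaling the test of the difference between the 2 responses gave 535 genes with a higher change at 24 h (4.31%) and 780 with a lower one (6.28%). Of the 50 mitosis genes 41 had a lower change at 24 h, with a list median of -1.32 at 24 h and -0.17 at 6 h. Of the 51 replication genes 36 did, with medians of -1.97 and -0.65. CDC45 was among the genes that differed most, with a log2 change of -2.78 ± 0.22 at 24 h and 0.094 ± 0.22 at 6 h (difference -2.88 ± 0.31, adjusted p = 5.81e-06). STMN1 had -2.09 ± 0.098 at 24 h and 0.044 ± 0.098 at 6 h (difference -2.14 ± 0.14, adjusted p = 2.43e-08).

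Ribosomal proteins and oxidative phosphorylation also differed between the times. Of 52 ribosomal proteins 27 had a lower change at 24 h, with medians of -0.43 at 24 h and 0.24 at 6 h. Of 48 oxidative phosphorylation genes 19 did, with medians of -0.33 and 0.25. In the other direction 9 of 26 surface genes, 8 of 20 plasma cell regulators and 7 of 23 NF-kB targets had a higher change at 24 h. SDC1 had a log2 change of 1.07 ± 0.068 at 24 h and 0.14 ± 0.068 at 6 h (difference 0.93 ± 0.096, adjusted p = 3.61e-06). DUSP5 had 1.77 ± 0.12 at 24 h and -0.53 ± 0.12 at 6 h (difference 2.29 ± 0.16, adjusted p = 6.88e-08). MYC had 0.58 ± 0.25 at 24 h and -0.74 ± 0.25 at 6 h (difference 1.32 ± 0.36, adjusted p = 0.0217). For POLR2A, with 1.56 ± 0.10 at 24 h and 1.82 ± 0.10 at 6 h, and MCL1, with 1.11 ± 0.082 and 0.77 ± 0.082, the difference did not pass the test (adjusted p = 0.289 and 0.0656). As deposited 4 genes had a higher (0.0322%) and 6 a lower change at 24 h (0.0483%, and 0.0805% in all), and single libraries moved their sum of 10 to between 1 and 323, the last without DMSO replicate 2 of MM1S at 24 h.

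Set against H929 at 24 h, the responses of the lines could be compared only with their different doses. After rescaling 2587 genes were higher (20.8%) and 1550 lower (12.5%) with YKL in H929, and as deposited 332 (2.67%) and 4396 (35.4%). After rescaling, of the genes higher in MM1S, 947 were also higher in H929 (52.9% of 1791, and 36.6% of 2587), and of those lower in MM1S, 773 were also lower in H929 (46.7% of 1655, and 49.9% of 1550). Of these 1791 and 1655 genes, 39 and 87 were called in the opposite direction in H929. As deposited 29 of the 85 higher genes were also higher in H929 (34.1%, and 8.73% of 332). Of the 841 lower genes 684 were also lower there (81.3%, and 15.6% of 4396), so the shared part depends on the scale. After rescaling the test of the difference gave 536 genes with a higher change in MM1S (4.32%) and 996 with a lower one (8.02%), and 1532 in all, which became 996 without H929 DMSO replicate 3. As deposited it gave 133 and 36 (1.07% and 0.29%), and single libraries moved their sum of 169 to between 50, without H929 DMSO replicate 2, and 2396, without MM1S DMSO replicate 2.

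Of the 51 replication genes 16 had a lower change in MM1S, with medians of -1.97 in MM1S and -1.49 in H929. MCM2 had a log2 change of -3.02 ± 0.15 in MM1S and -1.89 ± 0.15 in H929 (difference -1.13 ± 0.21, adjusted p = 0.00161). For RRM2 the difference was -0.45 ± 0.15 (adjusted p = 0.0485). Of the 50 mitosis genes 5 had a lower and 2 a higher change in MM1S, near the 8.02% and 4.32% of all tested genes. Among the 5 was STMN1, with -2.09 ± 0.098 in MM1S and -0.72 ± 0.098 in H929 (difference -1.37 ± 0.14, adjusted p = 3.74e-06). MYC target and ribosome biogenesis genes differed the other way: 19 of 48 had a higher change in MM1S, and the medians were -0.18 in MM1S and -0.78 in H929, where 39 fell. XBP1 had 0.79 ± 0.11 in MM1S and -0.29 ± 0.11 in H929 (difference 1.08 ± 0.16, adjusted p = 0.000252). WHSC1 had -0.87 ± 0.09 in MM1S and 1.36 ± 0.09 in H929 (difference -2.23 ± 0.13, adjusted p = 1.05e-09). SDC1, with 1.07 ± 0.068 and 1.07 ± 0.068, did not differ beyond its error (0.0026 ± 0.096, adjusted p = 0.99).

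**Figure D5:**
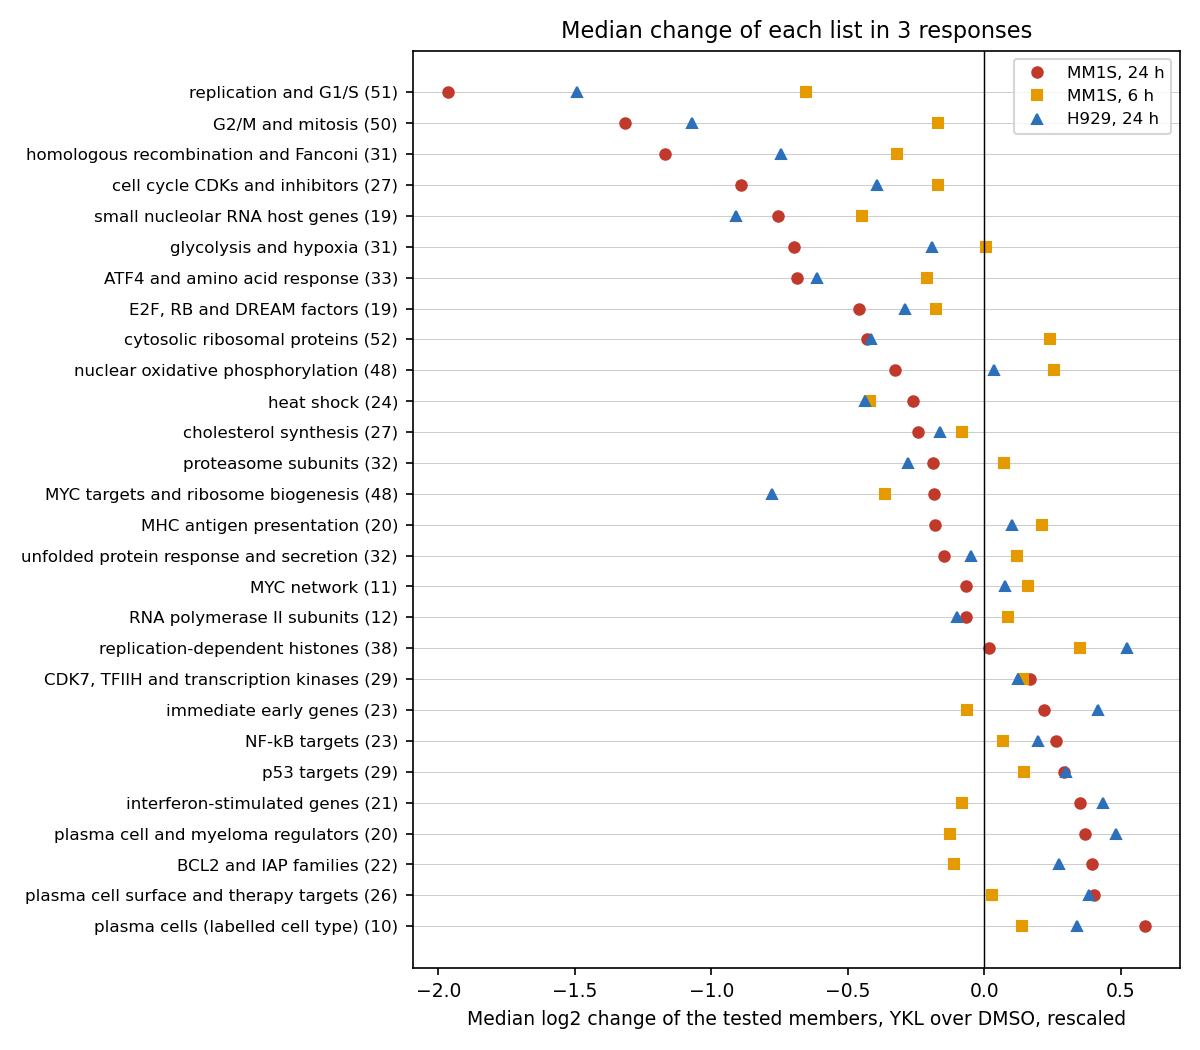
Median log2 change (YKL over DMSO, rescaled) of the tested members of each gene list in MM1S at 24 h (red circles), MM1S at 6 h (orange squares) and H929 at 24 h (blue triangles). The replication list stands at -1.97, -0.65 and -1.49, and the ribosomal protein list at -0.43, 0.24 and -0.42.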

How the data were processed

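RNA of MM1S and H929 cells was made into 3′ end libraries (QuantSeq), per the labels' protocols. HISAT2, Cuffnorm and the build hg19 are named in the submitters' processing notes, without versions. FPKM values were deposited by the authors, with a table for each library (26341 entries, of which 92 were ERCC spike-ins). No table held a 0. The 50 spike-ins averaging 10 FPKM or more were level across libraries, as after scaling to them, a step not given in the sources used here. FPKM divides by gene length, which 3′ end reads do not call for, so levels were not compared between genes. The tables give no read depth and hence no counting interval. Unused per-sample columns numbered 0.

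Genes that reached 1 FPKM in 3 or more libraries (12418) were tested on log2(FPKM + 1) by limma-trend (two-sided; limma 3.58.1 under R 4.3.3), with all 24 libraries in 1 fit of 8 group means (16 residual degrees of freedom) and Benjamini-Hochberg adjustment (threshold 0.05). Changes on this scale understate those of low genes. Rescaling divided each library by its median-of-ratios factor over 6014 genes whose geometric mean reached 5 FPKM. Interaction contrasts tested differences of responses. Named genes were the 12 largest rises and falls without overlap on each scale, up to 4 members of each of 35 lists by smallest rescaled p, 9 fixed genes (CDK7, MYC, IRF4, MCL1, E2F1, CDKN1A, CCND2, XBP1 and POLR2A), and the 4 largest differences of each sign per interaction; LOC entries, small RNA classes and ribosomal pseudogenes were left out. The members and lists were chosen with earlier results of these data known. The test was checked on simulated data for the MM1S comparison at 24 h (12418 genes): 86 of 100 genes changed by 1 on the log2 scale and 99 of 100 changed by 2 were recovered, with 6 false among 191 calls. The changed genes were drawn from those at about 5 FPKM or more with DMSO after rescaling. Noise was independent between libraries and had the spread of the rescaled values. Recovery of lower genes and on the deposited scale was therefore not checked. Some named genes are not reported here. Alternatives were other pseudocounts, filters, scalings and weights, a replicate block, fewer libraries, and each library left out.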

Additional observations from a re-analysis of the deposited data

Results flagged for a closer look

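The responses of MM1S at 24 h and H929 at 24 h differed by an interaction test in 1532 genes after rescaling and in 169 as deposited. Each gene below was past the threshold in the test of the difference and in MM1S at 24 h. With a larger change in MM1S were IFRD1, a transcriptional co-regulator (log2 difference 2.45; 0.94 ± 0.12 in MM1S and -1.52 ± 0.12 in H929), MT1E (2.38), LINC01291 (2.04) and C11orf96 (2.02; 2.57 ± 0.20 in MM1S and 0.55 ± 0.20 in H929). IFRD1 moved in opposite directions in the lines. With a lower change in MM1S were RMRP, the RNA of an endoribonuclease (-4.31), HIST1H4H (-3.07), HIST1H2BG (-2.75; 1.34 ± 0.45 in MM1S and 4.10 ± 0.45 in H929) and CNFN (-2.74). RMRP was at 0.0546, 0.0490 and 0.0490 FPKM with YKL, against 4.37, 4.23 and 0.753 FPKM with DMSO in MM1S, and its YKL values lay near the lowest value of their tables. CNFN and HIST1H4H likewise stood under 0.1 FPKM in all YKL libraries of MM1S, and MT1E in all DMSO libraries.

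The responses of MM1S at 24 h and at 6 h differed in 1315 genes after rescaling and in 10 as deposited, where 1126 had an unadjusted p under 0.05. With a higher change at 24 h were SCO2 (log2 difference 4.29), HIST1H2BD (3.16; 2.78 ± 0.38 at 24 h and -0.38 ± 0.38 at 6 h), DUSP5 (2.29) and HIST1H3D (2.26). With a lower change at 24 h were HIST1H4H (-2.93), CDC45 (-2.88), PHF10, a subunit of a chromatin remodelling complex (-2.72; -2.35 ± 0.18 at 24 h and 0.36 ± 0.18 at 6 h), and ATP2A1-AS1 (-2.69; -2.62 ± 0.42 at 24 h and 0.076 ± 0.42 at 6 h). PHF10 was at 0.341, 0.844 and 0.838 FPKM with YKL, against 4.86, 9.47 and 4.76 FPKM with DMSO in MM1S at 24 h, with all YKL libraries below all DMSO libraries. HIST1H4H was at 0.0752, 0.0620 and 0.0650 FPKM with YKL, against 4.53, 3.89 and 0.394 FPKM with DMSO, and its call at 24 h was lost without DMSO replicate 1 (adjusted p = 0.0821).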

How the results depend on the processing

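The count of called genes in MM1S at 24 h as deposited (926) was 5025 with a weight per library and 492 with only these 6 libraries fitted, and between 491 and 1861 with 1 library left out. After rescaling (3446) it was 1639 with only the 6 libraries and between 2765 and 3288 with 1 left out. Other pseudocounts and filters kept both counts within 1.5 times, as did the ERCC rescaling for 926 and the upper quartile and weights for 3446. The difference between lines as deposited (169) was 58 and 555 with pseudocounts of 0.25 and 4, 107 without a filter, 5724 with weights, and 50 to 2396 with 1 library left out; rescaled (1532) it was 996 to 1610. The difference between times as deposited (10) was 39 and 5 with those pseudocounts, 19 without a filter, 3412 with weights, and 1 to 323 with 1 library left out; rescaled (1315) it was 1023 to 1411. The whole-library difference (-0.28) ranged over -0.51 to 0.059 with 1 library left out. The causes were not tested. Replicate numbers did not pair the samples (correlations of same-numbered deviations -0.093, -0.13 and -0.046). With the replicate block the counts as deposited were 703, 38 for lines and 0 for times (limma, 1007 with an unadjusted p under 0.05), and rescaled 3055, 1121 and 995. No named gene (0 of 151) changed sign past the threshold under any alternative. Most named genes were picked for large or clear changes in these same data, so this outcome was largely set in advance. Of named genes, 25 of 93 called as deposited and 14 of 148 called after rescaling lost the call without at least 1 library, and 32 gained one as deposited. With only the 6 libraries the rescaled list counts also fell: ribosomal proteins to 8, oxidative phosphorylation to 5, heat shock to 1 and MYC targets to 7, p53 target rises to 5, and replication and mitosis to 44 and 43. Depth is unknown, so values near the floor of the tables set no limit on expression.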

Other observations

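Small nucleolar RNAs, which guide the modification of ribosomal RNA and are cut from the introns of host genes, were outside the rule for named genes and were looked at after their values were seen. Of 132 tested entries of this class, 11 were lower with YKL after rescaling (8.33%) and 8 as deposited (6.06%), against 13.3% and 6.77% of all tested genes. The entries below are among its largest falls. On the log2 scale the class median was 0.011 after rescaling. SNORA25 was at 0.0477, 0.0468 and 0.0470 FPKM with YKL, against 194, 303 and 116 FPKM with DMSO. SNORA24 was at 0.0506, 0.0475 and 0.0475 FPKM with YKL, against 11.4, 26.2 and 39.6 FPKM with DMSO. SNORA61 was at 0.0471, 12.1 and 0.0460 FPKM with YKL, against 335, 180.4 and 64.7 FPKM with DMSO. The YKL values of SNORA25 and SNORA24 lay near the lowest value of their tables in all 3 libraries, far below every DMSO library. For SNORA4, with 0.0506, 0.0476 and 0.0480 FPKM with YKL, against 0.0617, 120.2 and 86.6 FPKM with DMSO, 1 DMSO library was also near it. Short RNAs without a poly(A) tail are not a target of the library method, their FPKM divides by a very short length, and the reads behind such values are unknown.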
